A study of Mus musculus with 12 samples.

Results

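RNA-seq libraries of the wild-type mouse cochlea were compared between the apical turn, at the tip of the spiral, and the middle turn next to it, at P14. The comparison used the 2 apical and the 2 middle wild-type libraries, 4 of the 12 libraries of the study, and a gene entered if 2 of these 4 libraries or more had it at 1 FPKM, as was so for 14541 of 37432 genes. The study was made to examine deafness in mice homozygous for 35delG, a deletion in the connexin 26 gene *Gjb2*, and it sequenced the apical, middle and basal turns of both genotypes, with 2 libraries of each. Each cochlea had been cut into 3 sections of equal size, so a library can hold any tissue of a section, from the hair cells and nerve to the lateral wall and bone. Which of these tissues were kept is not given in the sources used here. The wild-type mice were purchased males of the same age as the mutants, and their strain is not given in the sources used here. The *Gjb2* 35delG/35delG males, whose apical and middle libraries were used for comparison, had been derived by tetraploid complementation from stem cells on an almost C57BL/6J background and nursed by ICR females, so genotype and origin of the mice cannot be told apart. The numbers of mice and cochleae behind a library are not given, and the p-values measure only the spread between these libraries.

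The cochlea is laid out by frequency, with high tones sensed at the base and low tones at the apex. In its organ of Corti, inner hair cells pass the sound signal to the spiral ganglion neurons, and outer hair cells amplify it with the motor protein prestin under the control of nerve fibers from the brainstem. Supporting cells hold the hair cells in place, the tectorial membrane lies over their hair bundles, and mesothelial cells line the basilar membrane from below.

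FPKM correct the fragments of a gene for its length and for the size of the library, and the sequencing depth behind them is unknown here, so no counting error is given and a 0 is reported only as listed at 0. The FPKM summed to 316425 and 324586 in the apical libraries and to 358355 and 371633 in the middle libraries. Values below are scaled FPKM, divided by 1 factor per library, and fold changes are apical minus middle on log2(scaled FPKM + 1), a scale that understates the difference of low genes. On this scale the Euclidean distance was 35.5 between the apical libraries and 58.5 between the middle libraries. The distances between libraries of different turns ran from 71.7 to 87.6, so each was larger than both distances between repeats. The first principal component of the 4 libraries held 71.0% of the variance and placed the apical libraries at 37.6 and 34.2 and the middle libraries at −46.2 and −25.6. The second held 20.7% and set the middle libraries apart from each other, at 23.5 and −31.3, with the apical libraries between them at 4.19 and 3.65. Over genes, the median absolute log2 difference was 0.14 between the apical libraries, 0.21 between the middle libraries and 0.33 between the means of the turns.

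The middle libraries differed from each other in markers of tissue around the cochlear duct. A list of 14 oligodendrocyte genes, which mark the central part of the auditory nerve, summed to 209 and 172 scaled FPKM in the apical libraries, to 1855 in middle library 1 and to 219 in middle library 2. The myelin gene *Mobp* was at 0.836 and 0.587 in the apical libraries and at 639.7 and 3.65 in the middle libraries, and *Mog* was at 0.140 and 0 against 211 and 1.95. The astrocyte filament gene *Gfap* was at 1.29 and 1.49 in the apical libraries and at 366 and 0.817 in the middle libraries. Only middle library 1 of the 4 was high in these genes. Among the genes tested, 45 with at least 5 scaled FPKM were over 5 times higher in it than in any of the other 3. There were 4 such genes in middle library 2, 0 in apical library 1 and 1 in apical library 2. Genes that reached 1 FPKM in only 1 of the 4 libraries were not tested, so these counts leave them out. In the remaining libraries of the study, the same list summed to 482 and 689 in the wild-type basal turn, to 755 and 973 in the homozygous basal turn, and to between 322 and 491 in the homozygous apical and middle turns. *Cldn11*, which strial basal cells also express, led these sums. Without it they were 122 and 416 in the wild-type basal turn, 445 and 623 in the homozygous basal turn and below 95 in the other homozygous libraries. In the wild-type apical libraries the sums without it were 105 and 102, against 1340 in middle library 1 and 92.3 in middle library 2. *Mobp* was at 1.16 and 175 in the wild-type basal libraries and at 192 and 266 in the homozygous basal libraries, so both homozygous basal libraries but only 1 of the wild-type basal libraries were high in it. Middle library 1 was thus like 3 of the 4 basal libraries in these genes, and wild-type basal library 1 was not. Over all genes tested, the library nearest to middle library 1 was middle library 2, at a distance of 58.5, followed by wild-type basal library 2 at 75.0 and homozygous basal library 1 at 75.3. The library nearest to wild-type basal library 1 was homozygous middle library 2, at 66.1, and it was 95.2 from the other wild-type basal library and 107 and 96.4 from the wild-type middle libraries. Wild-type basal library 2 was likewise nearest to a homozygous middle library, number 1, at 62.3.

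Between the genotypes the middle and basal turns matched crosswise on average in all 4 wild-type libraries of these turns, least so in middle library 2, where the distances overlap. Wild-type middle library 1 was at 75.3 and 80.8 from the homozygous basal libraries and at 94.1 and 103 from the homozygous middle ones, and middle library 2 at 82.9 and 92.3 against 88.0 and 98.0. Wild-type basal library 1 was at 141 and 148 from the homozygous basal libraries and at 85.9 and 66.1 from the homozygous middle ones, and basal library 2 at 102 and 99.1 against 62.3 and 81.8. Whether single samples or the middle and basal turns of a genotype were exchanged cannot be told from the labels and was not tested. The libraries were kept as labelled, and every difference between turns holds for the libraries so labelled. The part of nerve tissue in the results was not tested, other than by leaving out each library.

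Genes were tested with limma in 1 fit of all 12 libraries and counted as called when the adjusted p was below 0.05 and the difference above 2-fold. Between the wild-type turns 118 genes were called, 0.811% of those tested. Of these, 109 were higher in the apical turn (0.750%) and 9 in the middle turn (0.0619%), while 3182 genes had an unadjusted p under 0.05. With no test, 666 genes were over 2-fold higher in the apical turn and 521 in the middle turn, and the median over all genes tested was 0.02, a value that the scaling brings near 0. In 67.8% of all genes the libraries of the turns did not overlap, with both apical libraries above in 36.3% and below in 31.5%, and none of the 118 called genes overlapped. The number of calls depended on single libraries. Without wild-type apical replicate 1 or 2 only 6 and 8 genes were called, without middle replicate 1 only 3, all of them higher in the apical turn, and without middle replicate 2 there were 79 higher in the apical and 36 higher in the middle turn. Without either wild-type basal library the fit called 239 and 44. Leaving out a homozygous library gave 73 and 5 for each of the apical libraries, 71 and 6 or 68 and 4 for basal replicate 1 or 2, and 52 and 1 for each of the middle libraries. *Notumos*, *Gm48405* and *Slc26a5* were called in all 12 fits that left out a library, and *Notumos* also under all 28 alternatives tried. Neither *Gm48405* nor *Slc26a5* was called with a pseudocount of 0.01, and *Slc26a5* was also not called in the fit of only the 6 wild-type libraries. The genes of largest difference, *Ocm* and *Tectb*, were called in only 3 and 2 of the 12 fits.

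**Figure D1:**
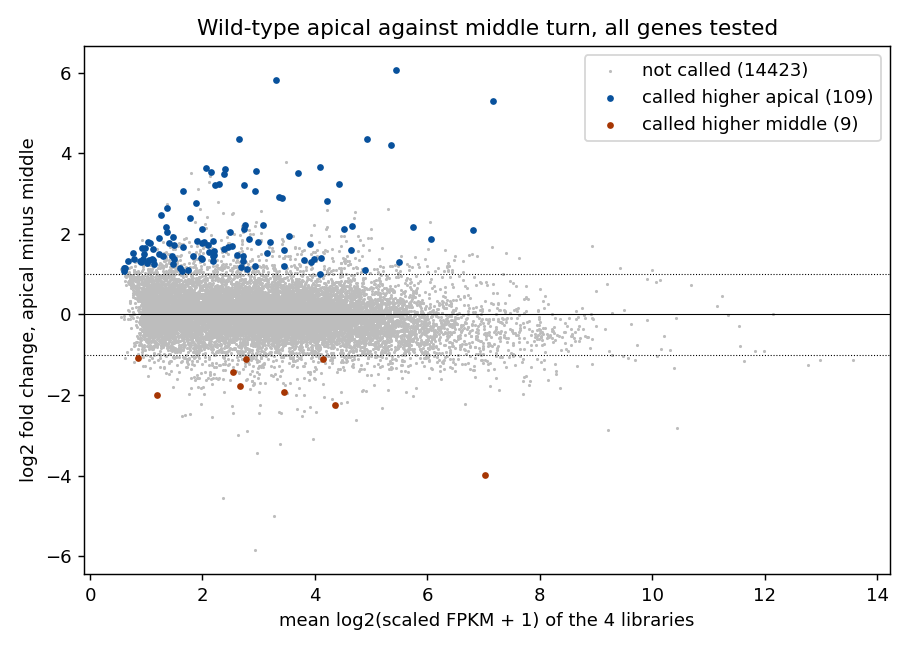
Difference between wild-type apical and middle turns (log2 fold change, vertical axis) against the mean level (log2 of scaled FPKM + 1, horizontal axis) for the 14541 genes tested. Blue points are the 109 genes called higher in the apical turn, brown points the 9 called higher in the middle turn, and dotted lines mark a 2-fold difference.

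Genes of outer hair cells were among the largest differences. *Ocm*, which encodes the calcium-binding protein oncomodulin of outer hair cells and lies on chromosome 5 from 144019804 to 144026599 of mm10 (GRCm38), was at 360.0 and 353 scaled FPKM in the apical libraries and at 0.345 and 20.2 in the middle libraries. *Slc26a5*, the prestin gene, was at 27.1 and 27.5 in the apical libraries and at 0.0255 and 0.876 in the middle libraries. Both genes were high in both apical libraries, near 0 in middle library 1 and low in middle library 2, with no overlap. The log2 differences were 6.06 for *Ocm* (adjusted p = 0.0447 from limma, with a standard error of 1.08) and 4.35 for *Slc26a5* (0.00223, with 0.34). *Strc*, for stereocilin, which links the stereocilia of outer hair cells to each other and to the tectorial membrane, was at 14.3 and 13.3 in the apical libraries and at 0.0455 and 0.352 in the middle libraries. *Chrna10* and *Chrna9* form the receptor through which efferent fibers act on outer hair cells. *Chrna10* was at 18.3 and 16.8 in the apical libraries against 0.0373 and 1.23 in the middle libraries, and *Chrna9* at 4.80 and 4.01 against 0 and 0.441. In these 3 genes too, middle library 1 was the lowest of the 4, and the middle libraries were far below the apical ones. Their log2 fold changes were 3.64, 3.61 and 2.17, with adjusted p of 0.00509, 0.0358 and 0.0224 from limma.

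Of the 10 outer hair cell genes tested, 4 were called higher in the apical turn (*Ocm*, *Slc26a5*, *Chrna10* and *Strip2*), 6 had an unadjusted p under 0.05, and the median log2 fold change was 1.49, beside 0.02 over all genes tested. In sum they were at 523 and 512 scaled FPKM in the apical libraries and at 67.4 and 84.8 in the middle libraries, 13.0% and 16.4% of the apical mean. *Ocm* carried most of this sum, and without it the list was at 163 and 159.7 against 67.1 and 64.7, so at 41.6% and 40.0% of the apical mean, while the median member was at 20.0% and 30.5%. Among 18 tested genes of hair cells of both kinds, 4 were called higher in the apical turn (*Strc*, *Chrna10*, *Chrna9* and *Myo7a*), 16 had both apical libraries above both middle ones, and the median was 1.64. *Myo7a*, a myosin of the hair bundle, was at 13.9 and 13.6 in the apical libraries and at 2.37 and 4.35 in the middle libraries. The exceptions in this list were *Pvalb* and *Calm2*, calcium-binding proteins that neurons also express, with *Pvalb* at 154 and 195 in the apical and 511 and 733 in the middle libraries. The sum of this list, led by *Calm2*, was higher in the middle turn, at 1266 and 2055 against 887 and 997. Without *Calm2* it was still higher there, at 594 and 892 against 485 and 525. The median member of the list was at 16.4% and 42.8% of the apical mean in the middle libraries. The developmental regulator *Atoh1* was listed at 0 in both middle libraries and in 1 of the apical ones. Fewer hair cells and less RNA in each of them cannot be told apart in libraries of mixed tissue, here or for any other cell type. Without wild-type apical replicate 1 or 2 or middle replicate 1, only *Slc26a5* of all genes in both lists was still called. Without any 1 of the 6 homozygous libraries, the outer hair cell list had 2 called genes, *Slc26a5* and *Strip2*, and without a homozygous middle library the list for both kinds had 2, *Strc* and *Chrna9*. Without middle replicate 2, 9 genes of the list for both kinds were called, adding *Espn*, *Gfi1*, *Otof*, *Pou4f3* and *Tmc1*.

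Inner hair cell genes had a smaller median difference. *Slc17a8*, the glutamate transporter that loads the synaptic vesicles of inner hair cells, was at 30.8 and 31.5 scaled FPKM in the apical libraries and at 4.79 and 24.3 in the middle libraries. *Otof*, which encodes the calcium sensor otoferlin of vesicle release, was at 59.8 and 61.7 in the apical libraries and at 9.42 and 25.2 in the middle libraries. *Atp2a3*, a calcium pump, was at 62.1 and 67.0 against 15.3 and 46.6. Middle library 2 held 78.0% of the apical mean of *Slc17a8*, 72.1% of *Atp2a3* and 41.5% of *Otof*, against 3.21% of *Slc26a5* and 5.67% of *Ocm*, the lowest of the 10 genes in the outer hair cell list. The median member in this library was at 77.0% for the inner and 30.5% for the outer hair cell list. In middle library 1 *Slc17a8*, *Atp2a3*, *Otof*, *Slc26a5* and *Ocm* were at 15.4%, 23.7%, 15.5%, 0.0936% and 0.0969%. The lists differed less there, with the median member at 38.1% for the inner and 20.0% for the outer hair cell list. Without *Ocm* the outer hair cell sum in library 1 was at 41.6% of the apical mean, above the inner hair cell sum at 31.3%. Of the 8 inner hair cell genes tested limma called 0, with 3 at an unadjusted p under 0.05 (2 positive, 1 negative), and the median log2 fold change was 0.94. The list summed to 238 and 251 in the apical libraries and to 76.6 and 170.9 in the middle libraries, 31.3% and 69.9% of the apical mean, and *Fgf8* was listed at 0 in both middle libraries. Without middle replicate 2, limma called 2 of these genes, *Otof* and *Cabp2*. *Tmc1*, a subunit of the mechanotransduction channel in both kinds of hair cell, was at 9.14 and 10.1 in the apical libraries and at 0.520 and 4.14 in the middle libraries, and was not called (adjusted p = 0.121 from limma). *Myo15*, a myosin of stereocilia tips, was at 8.77 and 8.51 against 0.116 and 1.20 (adjusted p = 0.0657 from limma), with all middle values below the apical ones. *Myo3a*, another stereocilia myosin, was at 2.08 and 1.78 against 0.160 and 1.12 and was not called, and *Myo3b* did not reach the level for testing.

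**Figure D2:**
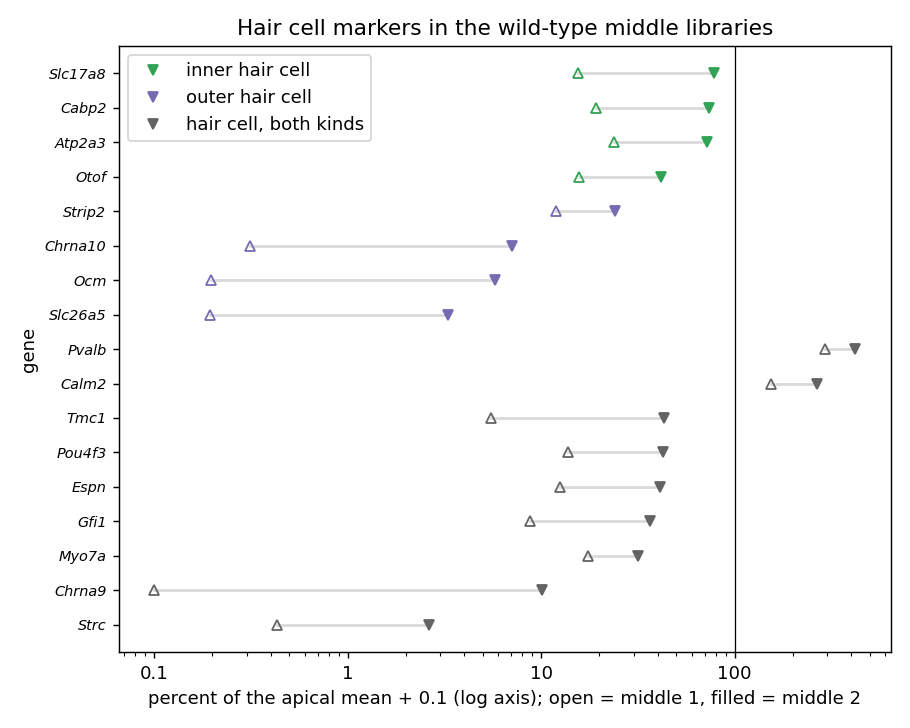
Level of the tested hair cell markers named in the text, which leaves out many with smaller differences, in the wild-type middle libraries as a percent of its apical mean (log axis, 0.1 added), with open symbols for middle library 1 and filled symbols for middle library 2. Genes of the outer hair cell list (purple) reach down to 0.0936% in library 1 and 3.21% in library 2 (both *Slc26a5*), while the inner hair cell gene *Slc17a8* (green) is at 15.4% and 78.0%.

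Genes of supporting cells and of the tectorial membrane were also higher in the apical turn. *Tectb*, which encodes beta-tectorin of the tectorial membrane and lies on chromosome 19 from 55180736 to 55196313, was at 63.1 and 84.7 scaled FPKM in the apical libraries and at 0.461 and 0.169 in the middle libraries. *Otogl* and *Otog*, for the related matrix proteins otogelin-like and otogelin, were at 42.3 and 43.4 and at 54.6 and 50.6 in the apical libraries. In the middle libraries *Otogl* was at 2.04 and 3.82 and *Otog* at 10.1 and 11.6. All 3 genes were high in both apical and low in both middle libraries, and unlike the outer hair cell genes *Tectb* was no higher in middle library 2 than in library 1. The log2 fold changes were 5.83, 3.52 and 2.18, with adjusted p of 0.0275, 0.00411 and 0.0322 from limma. *Fgfr3*, a growth factor receptor of pillar and Deiters cells, was at 46.2 and 50.3 in the apical libraries and at 5.13 and 6.87 in the middle libraries. *Jag1*, a Notch ligand of supporting cells, was at 15.2 and 19.5 against 1.78 and 4.43. Neither gene overlapped, and their log2 fold changes were 2.82 (adjusted p = 0.00411 from limma) and 2.23 (adjusted p = 0.0365).

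The most abundant genes of these cells differed less. *Ceacam16*, which encodes a tectorial membrane protein and had the highest mean of both lists, was at 2046 and 2168 in the apical libraries and at 1397 and 1172 in the middle libraries, a log2 fold change of 0.72 that was not called (adjusted p = 0.628 from limma). *Fbxo2* and *S100a1*, both abundant in supporting cells, were at 1289 and 1740.3 and at 1115 and 1516 in the apical libraries, and at 592 and 817 and at 664 and 754 in the middle libraries. Neither was called, although no middle library reached an apical one. Of 21 tested supporting cell genes, 4 were called higher in the apical turn (*Tectb*, *Otogl*, *Fgfr3* and *Jag1*), 20 had a higher mean there, and the median was 0.65. The list summed to 6058 and 7224 against 3319.7 and 3742, so the middle libraries held 50.0% and 56.3% of the apical mean. Of 11 tested genes of the tectorial membrane and otic matrix, 4 were called higher in the apical turn (*Tectb*, *Otog*, *Otogl* and *Emilin2*) and the median was 0.73, with sums of 3943 and 3703 against 2322 and 2234. Collagen genes of this list went the other way, with *Col2a1* at 118 and 135 in the apical and 429 and 372 in the middle libraries, where it was not called (adjusted p = 0.0540 from limma). Without wild-type apical replicate 1 or 2 or middle replicate 1 none of the members of these 2 lists was called, although at an unadjusted p under 0.05 limma had 7 genes of each with all libraries. Without middle replicate 2, limma called 3 and 2 of them, and *Tectb* was not among these. It called 2 supporting cell genes, *Fgfr3* and *Otogl*, without each homozygous basal or middle library, and left *Tectb* uncalled in every fit except those without a wild-type basal library.

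**Figure D3:**
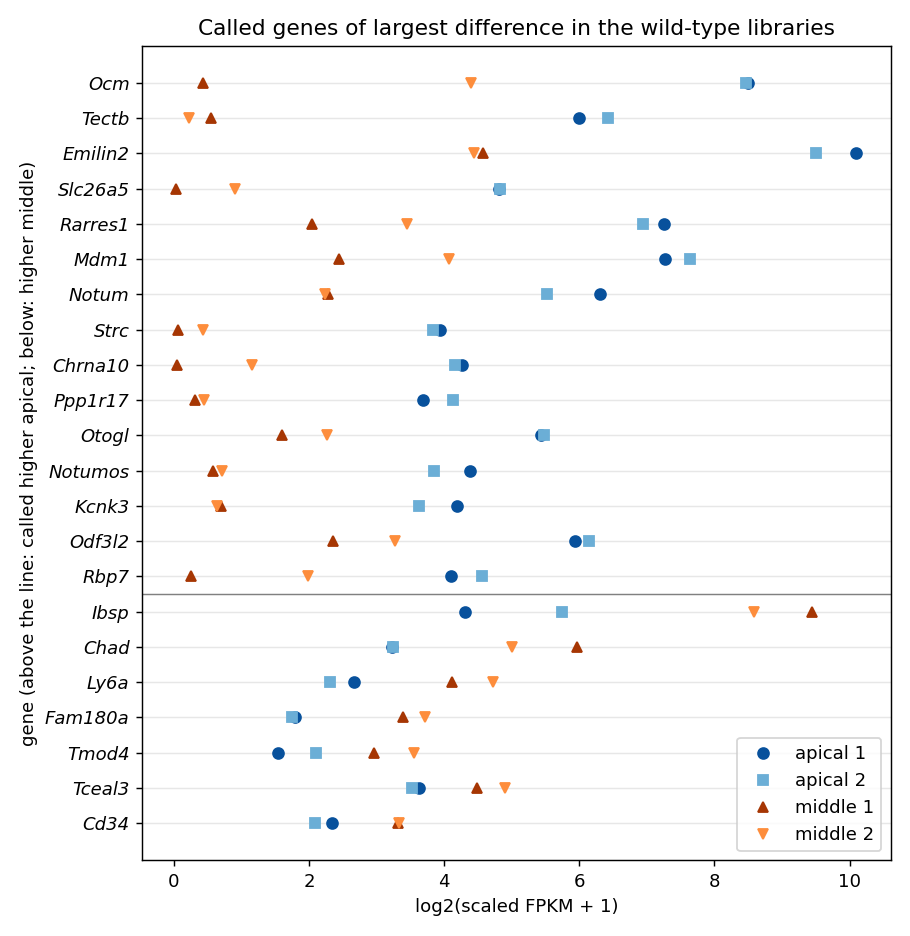
Level of the named genes of largest difference in each wild-type library, as log2(scaled FPKM + 1). The 15 genes above the line were called higher in the apical turn and the 7 below it higher in the middle turn, and in none of them do the libraries of the turns overlap.

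The most abundant called gene was *Emilin2*, which encodes a matrix glycoprotein of the basilar membrane and lies on chromosome 17 from 71252172 to 71311556. It was at 1099 and 725 scaled FPKM in the apical libraries and at 23.0 and 20.8 in the middle libraries, which differ by 5.29 on the log2 scale (adjusted p = 0.00840 from limma, with a standard error of 0.59). *Rarres1*, a retinoic acid responsive gene, was at 152 and 121 in the apical libraries and at 3.13 and 9.96 in the middle libraries. *Notum*, an enzyme that inactivates Wnt proteins, was at 78.5 and 44.8 against 3.87 and 3.72. All 3 were low in both middle libraries with no overlap, and the middle libraries were alike in *Emilin2* and *Notum* but not in *Rarres1*. They had been listed with cells of the tympanic border and mesothelium below the basilar membrane, where 3 of 4 tested genes were called and the median was 4.002. The list was chosen with earlier results of these data known, so this count and this median are no independent support. With no filter on level the median became −0.02, as 3 genes of the list below 1 FPKM in most libraries then counted. This list summed to 1334 and 893 in the apical libraries against 45.3 and 38.2 in the middle libraries, 4.07% and 3.43% of the apical mean, with *Emilin2* as its most abundant gene. The mesothelial marker *Upk3b* was listed at 0 in all 4 libraries, and *Msln* was at 0.121 and 0.0469 against 0.180 and 0.471. Neither gene reached the level for testing. *Notumos*, which overlaps *Notum* on the opposite strand, was at 19.9 and 13.5 against 0.4996 and 0.633. Whether the counting used strand is not given in the sources used here, and the reads of such pairs cannot be told apart. Of the 118 called genes 49 overlap another gene, and 8 overlap another called gene (*Notum* with *Notumos*, *Mdm1* with *Gm47958*, *Klhl14* with *4930426D05Rik* and *Tectb* with *Mir6715*). Without wild-type apical replicate 1 or 2 or middle replicate 1, limma called *Notumos* but none of the 4 listed genes, and without middle replicate 2 or any 1 homozygous library it called *Emilin2* and *Notum* but not *Rarres1*.

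Of the Wnt pathway, 2 of 22 tested genes were called, *Notum* and *Wnt7a*, both higher in the apical turn, and the median was 0.57. The ligand *Wnt7a* was at 8.72 and 8.92 scaled FPKM in the apical libraries and at 2.17 and 1.98 in the middle libraries, a log2 fold change of 1.68 (adjusted p = 0.0322 from limma). Both apical libraries were above both middle ones in 15 of the 22 genes, and 9 genes had an unadjusted p under 0.05, all higher in the apical turn. The pathway target *Axin2* was at 22.7 and 17.5 against 8.52 and 8.999 and was not called (adjusted p = 0.170 from limma). The list summed to 473 and 444 in the apical libraries and to 256 and 273 in the middle libraries. Of 12 Notch pathway genes 1 was called, *Jag1*, and the median was 0.23. Without wild-type apical replicate 1 or 2 or middle replicate 1, limma called neither *Notum*, *Wnt7a* nor *Jag1*, and *Wnt7a* was also lost without middle replicate 2 or homozygous basal replicate 2, and *Jag1* without each homozygous basal or middle library.

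Several genes with no list of their own were among the largest differences. *Mdm1*, which encodes a microtubule-binding protein of centrioles, was at 153 and 198 scaled FPKM in the apical libraries and at 4.43 and 15.8 in the middle libraries, a log2 fold change of 4.20 (adjusted p = 0.0164 from limma). *Odf3l2*, related to a component of sperm tails, was at 60.3 and 69.8 against 4.13 and 8.68, and *Rbp7*, which encodes a retinol-binding protein, at 16.3 and 22.7 against 0.193 and 2.97. In all 3 genes middle library 1 was the lowest library, as in the outer hair cell genes. *Kcnk3*, which encodes the leak potassium channel TASK-1, was at 17.2 and 11.4 in the apical libraries and at 0.620 and 0.553 in the middle libraries. *Ppp1r17*, an inhibitor of protein phosphatases, was at 11.8 and 16.5 against 0.246 and 0.363. The middle libraries were alike in both genes, whose log2 fold changes were 3.24 (adjusted p = 0.00559 from limma) and 3.52 (adjusted p = 0.00223). *Ppp1r17* was not called without middle replicate 1, *Kcnk3* not without that library or apical replicate 1, and *Mdm1*, *Odf3l2* and *Rbp7* not without either apical library or middle replicate 1. *Rbp7* was also not called without any 1 of the 6 homozygous libraries, and so in only 3 of the 12 fits. Of the genes called higher in the apical turn, 72 had a mean of 5 scaled FPKM or more, and 8 of the 72 were gene models with no function known.

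Genes of caveolae and vessels included *Cav1*, for the main caveolar coat protein, at 277 and 194 scaled FPKM in the apical libraries and 45.6 and 62.7 in the middle libraries. *Cavin2*, for another caveolar protein, was at 135 and 93.2 against 23.6 and 24.7, and *Emcn*, for the endothelial surface protein endomucin, at 149 and 108 against 31.8 and 35.7. All 3 were called higher in the apical turn, with log2 fold changes of 2.09, 2.17 and 1.88 and adjusted p of 0.0164, 0.0250 and 0.0164 from limma. Most other endothelial markers did not follow *Emcn*, the most abundant of them. Of 10 tested endothelial genes only *Emcn* was called, *Emcn* and *Kdr* had both apical libraries above both middle ones, the other 8 had both below, and the median was −0.60. *Cldn5*, of the tight junctions of vessels, was at 11.2 and 7.07 in the apical libraries and at 15.8 and 22.1 in the middle libraries and was not called. In sum these genes were at 221 and 162 against 129.9 and 155, and no member was at 0 in both libraries of a turn. Without *Emcn* the sums were 71.7 and 54.4 against 98.1 and 119, so their direction turned. *Met*, the receptor of hepatocyte growth factor, was at 21.3 and 15.1 in the apical libraries and at 5.25 and 5.31 in the middle libraries. *Bdnf*, the neurotrophin that hair cells make for the neurons, was at 3.82 and 3.95 against 1.16 and 1.40. Both were called, at log2 fold changes of 1.59 and 1.10 (adjusted p = 0.0447 and 0.0412 from limma), whereas the other neurotrophin *Ntf3*, at 2.32 and 1.92 against 1.01 and 1.76, was not. Of 10 tested neurotrophin and receptor genes *Bdnf* alone was called, and the median of 0.11 turned negative with no filter, with 5 FPKM and with all 12 libraries in the filter. Without wild-type apical replicate 1 or 2 or middle replicate 1, limma called none of *Cav1*, *Cavin2*, *Emcn*, *Met* and *Bdnf*. *Cavin2*, *Met* and *Bdnf* were also not called without middle replicate 2 or a homozygous middle library, *Met* without a homozygous apical library and *Bdnf* without a homozygous basal library. Without a wild-type basal library 2 endothelial genes were called, *Emcn* and *Slco1a4*.

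The 9 genes higher in the middle turn were led by a bone gene. *Ibsp*, which encodes bone sialoprotein and lies on chromosome 5 from 104299171 to 104311469, was at 18.8 and 52.4 scaled FPKM in the apical libraries and at 694 and 384 in the middle libraries, which differ by −3.99 on the log2 scale (adjusted p = 0.0452 from limma, with a standard error of 0.72). *Chad*, for the cartilage protein chondroadherin, was at 8.35 and 8.45 against 61.4 and 31.1, a difference of −2.25 (adjusted p = 0.0358 from limma). Both middle libraries were above both apical libraries in these genes. *Ly6a* and *Cd34*, surface proteins of progenitor, stromal and endothelial cells, were at 5.37 and 3.95 and at 4.05 and 3.27 in the apical libraries. In the middle libraries *Ly6a* was at 16.4 and 25.5 and *Cd34* at 8.97 and 9.11. The others were *Fam180a*, at 2.46 and 2.36 against 9.54 and 12.1, *Tmod4*, at 1.91 and 3.28 against 6.82 and 10.7, *Tceal3*, at 11.4 and 10.6 against 21.4 and 28.9, *Ctla2b* and the gene model *Gm26377*. The log2 fold changes of these 7 genes lay between −2.001 and −1.08. None of the 9 was called without wild-type apical replicate 1 or 2 or middle replicate 1, where limma still gave 1427, 1619 and 1994 genes an unadjusted p under 0.05. Without middle replicate 2 only *Chad* of the 9 was called.

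Of 14 tested osteoblast and osteocyte genes 1 was called (*Ibsp*), 12 had both middle libraries above both apical ones, and the median was −1.34. The list summed to 1142 and 1194 scaled FPKM in the apical libraries and to 2849 and 2882 in the middle libraries. The middle libraries were less alike than these sums, as the median member was at 653% of its apical mean in library 1 and at 193% in library 2. Its most abundant gene was *Spp1*, for osteopontin, at 941 and 934 against 1471 and 2036, which was not called (adjusted p = 0.374 from limma). No bone marker was at 0 in both libraries of a turn. *Ibsp* was called in only 2 of the 12 fits that left out a library, those without a wild-type basal library. Of 12 tested fibroblast genes 1 was called (*Cd34*), and the median was −0.39, with 6 genes positive and 6 negative. The list summed to 325 and 324 in the apical libraries against 483 and 659 in the middle libraries. Without *Dcn*, its most abundant gene, the sums were 204 and 194 against 183 and 217. Of 10 chondrocyte genes limma called 0, with 2 at an unadjusted p under 0.05, and the median of −0.28 turned positive when libraries were rescaled to an equal sum and when wild-type middle replicate 2 was left out. Of 4 osteoclast genes it called 0, with 1 at an unadjusted p under 0.05.

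Neuronal genes were higher in the middle turn without passing the test. *Snap25*, a protein of vesicle fusion and the most abundant gene of the list, was at 148 and 221 scaled FPKM in the apical libraries and at 353 and 444 in the middle libraries. The neurofilament gene *Nefh* was at 133 and 211 against 309.5 and 311, and *Stmn3*, of the microtubules of axons, at 90.7 and 120.1 against 337 and 503. Both middle libraries were above both apical ones in these genes, but the log2 fold changes of −1.13, −0.89 and −1.97 had standard errors of 1.57, 1.73 and 1.65. The fit pools the spread of all 6 groups, and the wild-type basal libraries, at 2.17 and 158 for *Snap25*, were far apart. Of 16 tested spiral ganglion neuron genes limma called 0, with 0 at an unadjusted p under 0.05, while 14 had both middle libraries above both apical ones and the median was −0.99. Together they were at 891 and 1274 in the apical libraries and at 2198 and 2593 in the middle libraries, with no member at 0 in both libraries of a turn. Of 26 synaptic vesicle and SNARE genes limma called 0, with 0 at an unadjusted p under 0.05, and the median was −0.84, with sums of 765 and 1010.4 against 1631 and 1677. Of 23 voltage-gated channel genes it called 0, with 1 at an unadjusted p under 0.05, and the median was −0.41. Of 13 genes of neuron subtypes limma called 0, with 2 at an unadjusted p under 0.05, and the median was −0.35.

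Of myelin genes of Schwann cells, which ensheath the peripheral part of the nerve, 15 of 20 were higher in both middle libraries than in both apical ones, without passing the test. *Mbp*, for myelin basic protein, which peripheral and central myelin share, was at 527 and 515 scaled FPKM in the apical libraries and at 11823 and 1156 in the middle libraries. Both middle libraries were above both apical ones, and middle library 1 was far above the other 3. Of 20 tested Schwann cell and myelin genes limma called 0, with 8 at an unadjusted p under 0.05, and the median was −1.03. The list summed to 3505 and 3568 in the apical and to 22138 and 7207 in the middle libraries, with *Mbp* the most abundant gene. Of 7 tested oligodendrocyte genes limma called 0, with 3 at an unadjusted p under 0.05, and the median was −1.61, while *Opalin*, *Olig2* and *Nkx6-2* were listed at 0 in both apical libraries. Of 10 astrocyte genes it called 0, with 2 at an unadjusted p under 0.05, and the median of −0.79 became 0.13 without middle replicate 1. *Sox10*, a regulator of all myelinating glia, was at 92.7 and 93.4 against 85.5 and 69.5 and did not share this difference.

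**Figure D4:**
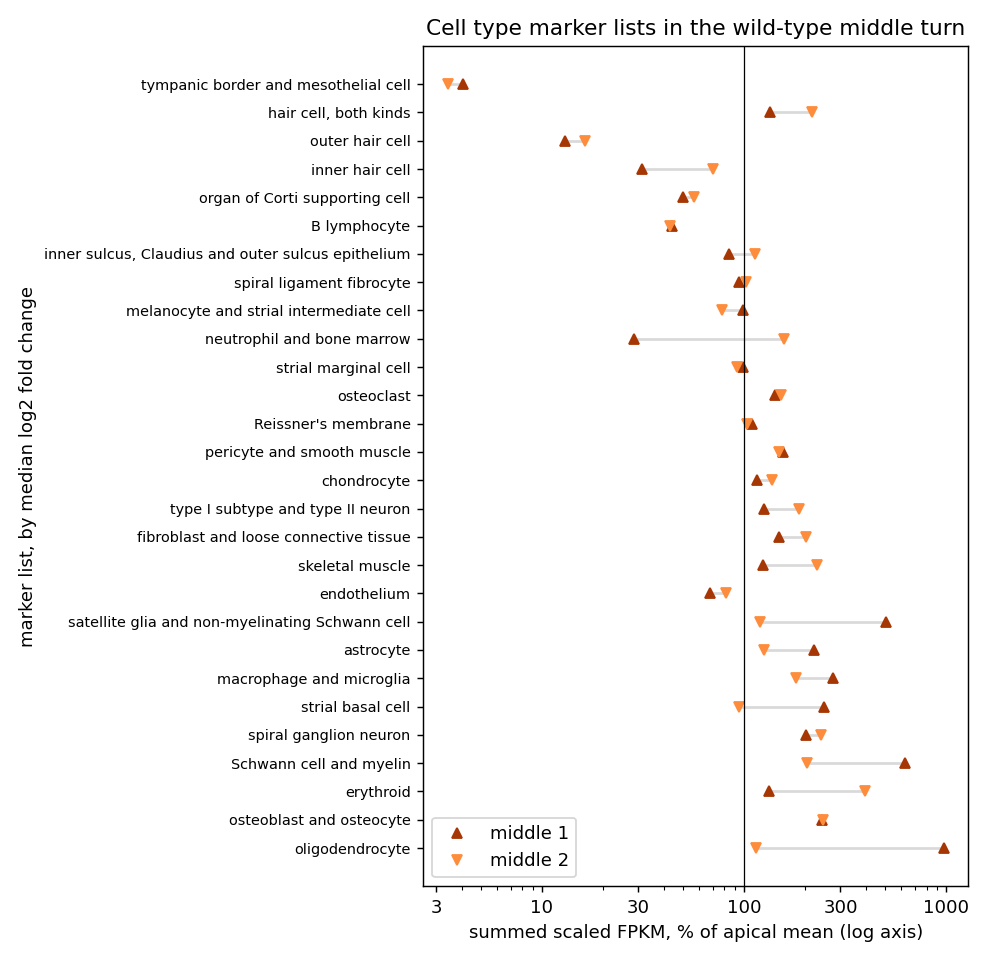
Summed level of each cell type marker list in the wild-type middle libraries as a percent of the mean of the apical libraries (log axis), ordered by the median log2 fold change of the list. Outer hair cell genes are at 13.0% and 16.4%, osteoblast genes at 244% and 247% (median member 653% and 193%), and oligodendrocyte genes at 973% in middle library 1 against 115% in library 2 (89.2% in library 2 without *Cldn11*).

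Genes of energy metabolism were higher in the middle libraries without passing the test. The mitochondrial gene *mt-Co1*, a subunit of cytochrome oxidase, was at 8443 and 8083 scaled FPKM in the apical libraries and at 14738 and 21971 in the middle libraries. The share of FPKM from the mitochondrial genome was 9.96% and 9.86% in the apical libraries and 13.8% and 20.6% in the middle libraries, and all 13 of its genes had both middle libraries above both apical ones. Of nuclear genes of oxidative phosphorylation, *Ndufa4* was at 161 and 161 against 473 and 523. All 29 such genes had both middle libraries above both apical ones, and their median was −0.88, beside −1.15 for the mitochondrial genome. Limma called 0 of the 29 and 0 of the 13, with 15 and 4 at an unadjusted p under 0.05, and without a wild-type basal library it called 3 of the 13. These genes went with the neuronal genes in the 2 turns, and also with macrophage and osteoblast genes. The part of neurons or of any other cell type in them was not tested. In the homozygous libraries the medians were 0.69 for spiral ganglion neuron genes, 0.06 for nuclear oxidative phosphorylation and −0.15 for the mitochondrial genome. Ribosomal protein genes were higher in the middle libraries by less, with a median of −0.47, both middle libraries above in 30 of 31 genes, and 0 called by limma (0 at an unadjusted p under 0.05). Sterol synthesis genes had a median of −0.66 and 0 of 17 called by limma, with 6 at an unadjusted p under 0.05. They summed to 271 and 274 in the apical libraries and to 639 and 336 in the middle libraries, and were thus highest in middle library 1. That library also had the most myelin RNA, and the part of myelin in these sums was not tested. In middle library 2 the Schwann cell and myelin sum was at 204% of the apical mean and the sterol synthesis sum at 123%.

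Blood and immune genes varied by library. Macrophage genes such as the complement gene *C1qa*, at 14.99 and 11.7 scaled FPKM in the apical libraries and 45.1 and 28.4 in the middle libraries, had both middle libraries above both apical ones in 11 of 11 genes. Limma called 0 of the 11, with 7 at an unadjusted p under 0.05, and the median was −0.93. Of the 4 libraries, interferon-stimulated genes were high only in middle library 2, with *Ifit3* at 3.76 and 3.17 against 5.76 and 30.7 and the list at sums of 60.9 and 62.6 against 65.9 and 228, and they were also high in wild-type basal library 1, at 266. Limma called 0 of these 11 genes, with 3 at an unadjusted p under 0.05, and the median of −0.87 became 0.09 without middle replicate 2. Neutrophil genes were high in 1 library of each turn, with *S100a9* at 99.5 and 12.8 in the apical and 15.4 and 93.8 in the middle libraries, and limma called 0 of 11 (0 at an unadjusted p under 0.05). Hemoglobin genes were highest in middle library 2, with *Hbb-bs* at 267 and 128 against 309 and 881. Of 8 erythroid genes limma called 0, with 0 at an unadjusted p under 0.05, and the median was −1.15. Of 14 proliferation genes only 3 reached the level for testing, and limma called 0 of them (0 at an unadjusted p under 0.05). The most abundant gene of this list, *Pcna*, had a mean of 26.9 scaled FPKM.

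Lists of the lateral wall had medians near 0, with members in both directions, apart from strial basal cells. *Coch*, for the matrix protein cochlin of spiral ligament fibrocytes, was at 4887 and 4196 scaled FPKM in the apical libraries and at 3848 and 5353 in the middle libraries. *Vmo1*, of Reissner's membrane, was at 449 and 491 against 479 and 542. Of 18 fibrocyte genes 1 was called (*Cav1*), 3 had an unadjusted p under 0.05 in limma, and the median was 0.14. *Cav1* was not called without wild-type apical replicate 1 or 2 or middle replicate 1. Of 9 marginal cell genes and of 5 genes of Reissner's membrane limma called 0, with 1 of each at an unadjusted p under 0.05. Their medians, −0.06 and −0.12, turned positive with the FPKM as deposited, with equal sums and with quantile normalization. Of 7 melanocyte and intermediate cell genes 1 was called (*Met*), and the median of 0.01 turned negative in 5 of the alternatives. Strial basal cell genes had a median of −0.95, 4 of 6 genes lower and 2 higher in both apical libraries, and 0 called by limma (5 at an unadjusted p under 0.05). Their sum was 248% of the apical mean in middle library 1 and 94.3% in library 2. Without *Cldn11* it was 74.0% and 68.7%, so that its direction turned in middle library 1. Without a wild-type basal library limma called 2 of the 6, *Nr2f2* and *Tjp1*, and without wild-type middle replicate 2 it called 1, *Cldn11*. Of 12 genes of the inner sulcus, Claudius cells and outer sulcus limma called 0, with 2 at an unadjusted p under 0.05, and the median was 0.29. *Gjb2*, the gene mutated in the study's other genotype, was at 248 and 254 in the apical libraries and at 139.7 and 268 in the middle libraries. *Gjb6*, for its partner connexin 30, was at 166 and 155 against 124 and 176. The libraries of the turns overlapped in both genes, and neither was called (adjusted p = 0.641 and 0.818 from limma). Of 7 connexin genes limma called 0, with 2 at an unadjusted p under 0.05, and the median was −0.64. The largest difference among them was that of *Gja1*, connexin 43, at 1.31 and 1.82 against 57.3 and 5.12, again highest in middle library 1.

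Genes proposed to follow the frequency axis of the cochlea were examined as a list, of which 27 were tested. Of these 2 were called, *Slc26a5* and *Bdnf*, both higher in the apical turn, and the median was 0.36. Only *Slc26a5* was called without wild-type apical replicate 1 or 2, middle replicate 1, or a homozygous basal or middle library. The growth factor genes *Bmp7* and *Tgfb2* were at 12.1 and 12.3 and at 33.2 and 34.4 scaled FPKM in the apical libraries. In the middle libraries *Bmp7* was at 6.22 and 5.90 and *Tgfb2* at 17.3 and 21.6, with no overlap, and neither was called. *Kcnma1*, a calcium-activated potassium channel of hair cells, was at 8.66 and 5.83 against 5.86 and 6.46, and *Fst*, for the activin antagonist follistatin, at 7.43 and 8.02 against 15.7 and 3.20. In both of these genes the libraries of the turns overlapped. Both libraries of the apical turn were above those of the middle turn in 15 of the 27 genes and below in 6, and 7 had an unadjusted p under 0.05. Of 26 genes of axon guidance and Eph signaling limma called 0, with 4 at an unadjusted p under 0.05, and the median was 0.16.

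The apical and middle libraries of the homozygous mice showed smaller differences for the same genes. Part of this follows from choosing the genes for large differences in wild-type. These libraries do not enter the wild-type difference, but they enter the spread that the fit pools. Calls thus favor genes whose homozygous repeats are alike, so the shares over all genes tested are not a neutral measure beside them. The comparison of genotypes rests on the labels of the middle and basal turns, which are in doubt as above. In the homozygous mice limma called 0 genes between these turns (0%), with 342 at an unadjusted p under 0.05. Of the 118 genes called in wild-type, 88 had the same sign there, beside 56.2% of all genes tested. The median of the 109 genes higher in the apical turn was 0.24 in the homozygous and 1.69 in the wild-type libraries. In 41 of the 109 both homozygous apical libraries were above both middle ones, beside 14.6% of all genes tested, and in 8 both were below, beside 11.8% of all. *Tectb* was at 368 and 269 scaled FPKM in the homozygous apical libraries and at 29.7 and 49.9 in the middle libraries, and *Otogl* at 62.8 and 37.0 against 12.8 and 17.5. Both were again higher in the apical turn without overlap, at log2 fold changes of 2.997 and 1.62. *Ocm* was at 221 and 219 against 159 and 305, *Slc26a5* at 18.5 and 12.5 against 7.78 and 11.7, and *Emilin2* at 460.4 and 318 against 386 and 326. The homozygous middle libraries thus had *Ocm* and *Emilin2* at levels close to those of the homozygous apical libraries, and far above those of the wild-type middle libraries. The difference between the genotypes was 6.06 for *Ocm*, 3.73 for *Slc26a5* and 5.18 for *Emilin2* on the log2 scale, and limma called none of the 3 (adjusted p = 0.412, 0.139 and 0.149). It called 1 gene of all tested (0.00688%), with 1258 at an unadjusted p under 0.05. Without a library the number of such genes was 6 for each wild-type basal library, 4 for wild-type middle replicate 2, 1 for each homozygous basal library and 0 for each of the other 7, where limma had 528 to 1647 genes at an unadjusted p under 0.05.

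**Figure D5:**
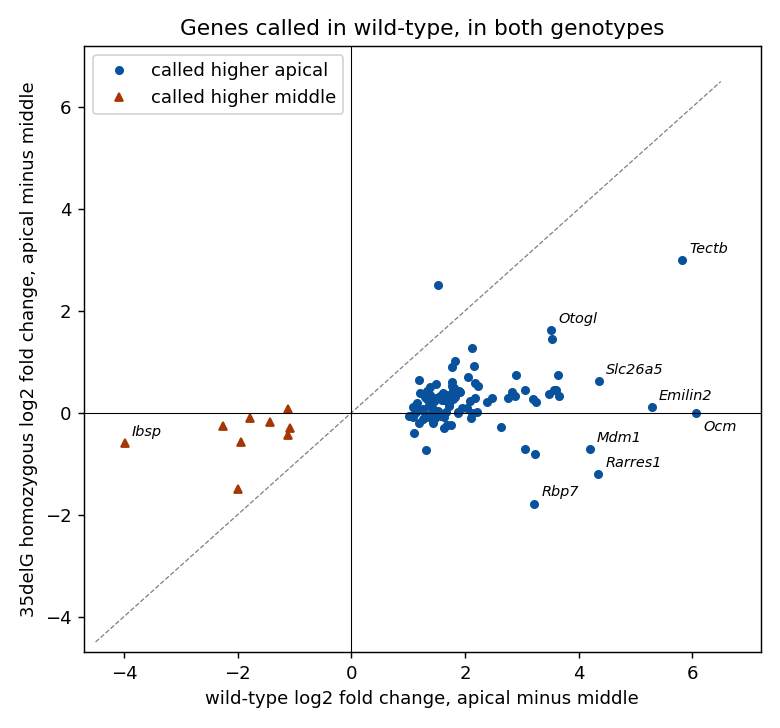
Apical minus middle log2 fold change of the 118 genes called in wild-type, in wild-type libraries (horizontal axis) and 35delG homozygous libraries (vertical axis), with the dashed line at equality. Of the 109 genes called higher in the apical turn (blue) 80 lie above 0 in the homozygous libraries, and of the 9 called higher in the middle turn (brown) 8 lie below 0.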

How the data were processed

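The deposited FPKM had been made by the authors with fastp 0.20.0, STAR 2.7.3a on mm10 and StringTie 2.0, from uniquely mapped reads. Here a median-of-ratios factor scaled each library, from 11552 genes with at least 1 FPKM in all 12 libraries (0.917 to 1.06). Genes with 1 FPKM or more in 2 of the 4 libraries were tested on log2(scaled FPKM + 1) with limma 3.58.1 in R 4.3.3, with 1 mean for each of 6 groups, a trended eBayes prior (degrees of freedom: 6 residual, 2.83 prior), two-sided tests, adjusted by Benjamini-Hochberg over 14541 genes. Only the group of a library entered as a term. The fit was tested on simulated data. Figures were drawn with matplotlib 3.10.9. Coordinates came with the deposited FPKM. The GENCODE annotation of GRCm38, in which 36831 identifiers were found, served only to leave out pseudogenes from the named genes.

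Named were the 15 largest called differences in each direction with a mean of at least 5 and no overlap, without gene models, the 3 most abundant and 3 most different called members of each list, members of the tonotopic and connexin lists, genes that the study names, and genes whose difference differed between genotypes. Of these not all are printed. *Mog*, *Gfap*, *Myo7a*, *Strip2*, *Slc17a8*, *Cabp2*, *Espn*, *Gfi1*, *Pou4f3*, *Atoh1*, *Fgf8*, *Otog*, *Msln*, *Upk3b*, *Axin2*, *Kdr*, *Opalin*, *Olig2*, *Nkx6-2*, *Slco1a4*, *Cavin2*, *Ctla2b*, *Gm26377*, *Ifit3* and the genes of overlapping pairs were named after their values were seen. The 46 lists hold 640 genes and are compiled markers and pathways. The members and lists were chosen with earlier results of these data known. Alternatives were other pseudocounts, filters, scalings, libraries in the fit, weights, thresholds, no trend, a replicate block, and each library left out in turn.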

Additional observations from a re-analysis of the deposited data

Results flagged for a closer look

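*Gm48405* was the only gene for which limma called the apical minus middle difference unequal in the genotypes, by 2.61 on the log2 scale (adjusted p = 0.0471). It was at 7.50 and 8.59 scaled FPKM in the wild-type apical and 0.0778 and 0.0886 in the middle libraries, and at 1.07 and 0.772 against 0.305 and 0.510 in the homozygous libraries. It overlaps *Cinp* on the same strand, so its level is uncertain.

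In 5 of the called and named genes the turns were in opposite order in the genotypes, with no overlap in either, and limma did not call the difference between genotypes for any of them. This difference was 4.91 for *Mdm1*, 4.04 for *Odf3l2*, 5.56 for *Rarres1* and 5.001 for *Rbp7*, all higher in the apical turn of wild-type and in the middle turn of homozygous mice, and −1.19 for *Tceal3*, which had the reverse order. *Mdm1*, for example, was at 6.15 and 6.03 in the homozygous apical and at 7.399 and 15.2 in the homozygous middle libraries.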

How the results depend on the processing

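The depth of the libraries is unknown, and with 2 libraries a turn the number of called genes depended on most settings. A pseudocount of 0.1 gave 44 genes (39 apical, 5 middle) and 0.01 gave 14 (12 and 2), no filter 71 (67 and 4), a filter of 5 FPKM 50 (46 and 4) and 1 FPKM in 2 of the 12 libraries 77 (73 and 4). The fit of only the 4 libraries called 763 (503 and 260), library weights 819 (564 and 255), only the 6 wild-type libraries 5 (5 and 0, with 3093 at an unadjusted p under 0.05), and an adjusted p under 0.01 gave 18 (18 and 0). Rescaling to an equal sum called 196 (191 and 5) and moved the median of all genes from 0.02 to 0.29, and the FPKM as deposited moved it to 0.13, so differences are relative to those medians. Library weights gave 15 genes differing between genotypes, no filter 2, and the pseudocounts, the filters of 5 FPKM and over the 12 libraries, the FPKM as deposited, equal sums, quantile normalization and the adjusted p under 0.01 gave 0, where limma had 847 to 1430 genes at an unadjusted p under 0.05. The cause of these changes was not tested, except that filters and libraries alter the genes or samples in the fit.

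Whether replicate numbers are shared between turns of the same mice is not given, and for the pairing of the wild-type apical and middle libraries the deviations of libraries of the same number correlated at −0.02 over genes. With the replicate block limma called 20 genes (19 and 1), of which 19 were among the 118, and 0 differing between genotypes (1183 at an unadjusted p under 0.05).

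With each library left out in turn, which assumes that a lone library varies like the others, the calls ranged from 3 to 283, those higher in the apical turn from 3 to 239, those higher in the middle turn from 0 to 44, and those differing between genotypes from 0 to 6. Of 46 list medians, 14 had the opposite sign under some setting, among them those of astrocyte, interferon-stimulated, immediate early and tympanic border genes, and 7 of the 14 under a scaling, all 7 between −0.28 and −0.01.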
